A study of Homo sapiens with 9 samples.

Results

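Neurite growth and the neuronal cytoskeleton were followed in LAN-5 cells through 10 genes that neurons use to extend, stabilise and fill their processes: GAP43, L1CAM, DPYSL3, STMN2, DCX, MAP1B, MAP2, TUBB3, NEFL and NEFM. The genes were chosen by symbol, as every probe set that the platform annotation gives to one of these symbols alone. Each symbol had 1 probe set, so the 10 genes are 10 of the 8746 probe sets on the array that are not controls, and 10 of the 7713 genes that have a probe set with 1 symbol. All 10 lay above the filter on dim probe sets, which left 5830 probe sets for testing.

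LAN-5 is an established human neuroblastoma line, a tumour line of the sympathetic nervous system. S100B is a small calcium-binding protein that glial cells make and release. RNA was measured on 9 Affymetrix arrays: 3 of untreated cells (given culture medium and nothing else), 3 of cells given S100B at 0.5 nM and 3 of cells given S100B at 5 µM. The 3 arrays of a group were described as biological replicates, all come from the 1 line, and no source used here states how long the treatment lasted. The comparisons ask whether S100B at a low or a high dose altered the RNA of these genes, and whether the doses differed.

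As background, a growing neurite is led by a growth cone, whose membrane carries GAP43 and the adhesion molecule L1CAM and whose steering uses collapsin response mediator proteins such as DPYSL3. Behind it lies a bundle of microtubules built from tubulins, including the neuronal beta-tubulin TUBB3, and regulated by stathmins and by microtubule-associated proteins. Neurofilaments, assembled from light, medium and heavy chains, fill and widen the mature axon. S100B applied from outside the cell is known to promote neurite outgrowth at low concentrations and to harm neurons at high ones.

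GAP43 and MAP1B had the highest Pearson's r of any pair of the 10 across the arrays, though not the highest Spearman's rho. DPYSL3 went with neither. For that reason the bases before the outermost annotated start of these 3 genes are shown. They are RefSeq sequence on GRCh38.p14, 250 bases ending just before the start, written 5′ to 3′ on the gene's strand. Capitals mark every CANNTG (an E-box, read by basic helix-loop-helix factors), GGGCGG on either strand (a GC box) and TATAAA on either strand (a TATA box), and no matches overlapped.
GAP43, chr3:115623260-115623509, plus strand: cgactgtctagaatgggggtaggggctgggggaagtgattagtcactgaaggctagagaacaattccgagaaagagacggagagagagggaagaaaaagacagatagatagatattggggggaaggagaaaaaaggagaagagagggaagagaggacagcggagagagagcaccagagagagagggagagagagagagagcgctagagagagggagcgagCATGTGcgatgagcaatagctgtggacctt
MAP1B, chr5:72107225-72107474, plus strand: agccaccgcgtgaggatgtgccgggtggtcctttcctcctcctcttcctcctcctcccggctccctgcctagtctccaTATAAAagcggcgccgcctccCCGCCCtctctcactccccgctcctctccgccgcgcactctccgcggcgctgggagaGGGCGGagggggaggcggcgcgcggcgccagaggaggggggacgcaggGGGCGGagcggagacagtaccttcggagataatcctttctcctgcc
DPYSL3, chr5:147510069-147510318, minus strand: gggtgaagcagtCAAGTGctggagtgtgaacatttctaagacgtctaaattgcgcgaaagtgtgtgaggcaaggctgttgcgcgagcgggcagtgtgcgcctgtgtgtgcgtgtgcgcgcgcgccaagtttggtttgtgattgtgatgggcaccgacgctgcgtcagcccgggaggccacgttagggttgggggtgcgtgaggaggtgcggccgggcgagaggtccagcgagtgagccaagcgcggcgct
GAP43 held 1 CANNTG and no match of the other motifs, MAP1B held 3 GGGCGG and 1 TATAAA and no CANNTG, and DPYSL3 held 1 CANNTG and no match of the other motifs. MAP1B and DPYSL3 each have another annotated start in the table, not shown, and its window held 1 CANNTG, 2 GGGCGG and 1 TATAAA for MAP1B and 1 CANNTG, 3 GGGCGG and no TATAAA for DPYSL3. Among 35116 windows of the same length before annotated starts, 61.8% held CANNTG, 42.6% held GGGCGG and 10.7% held TATAAA. Of the 10 genes, 7 had a window in the table. STMN2, NEFL and NEFM are named only.

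In all, none of the 10 genes passed the test in any comparison, at an adjusted p under 0.05 from limma over all probe sets tested. In the same fits, 17 of 5830 probe sets were called between 5 µM S100B and untreated cells (0.292%), all of them lower at 5 µM, and 15 were called between 5 µM and 0.5 nM (0.257%), 14 of them lower at 5 µM. Between 0.5 nM S100B and untreated cells limma called 0 (0%), with 192 probe sets at an unadjusted p under 0.05 and likewise 0 calls with a trended, robust prior. The moderated F test over the 3 groups called 14 (0.24%). The count of 0 of 10 is near these backgrounds. Values are log2 signal intensities as deposited, so a difference of 1 is a doubling, and levels are not compared between probe sets. In RNA from whole cultures, fewer cells of a type and less RNA per cell cannot be told apart.

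**Figure D1:**
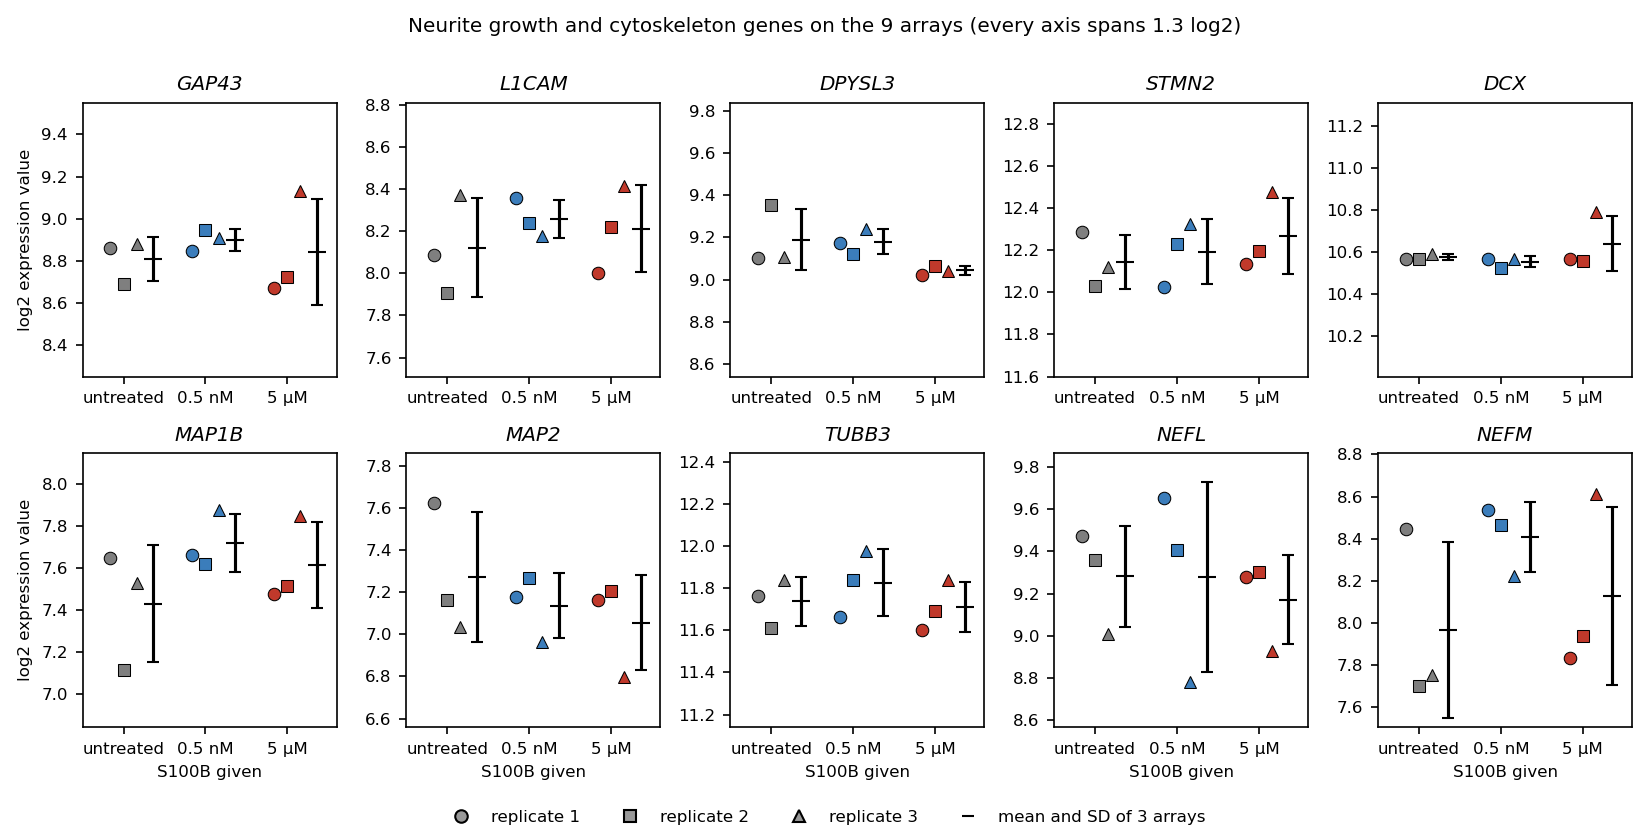
Log2 signal of each of the 10 genes (panels, each spanning the same range in log2 units) on every array, by group in dose order, with marker shape for the replicate number and bars for the group mean and SD of 3 arrays. The groups overlap in every panel except DPYSL3, where the 3 arrays at 5 µM lie between 9.02 and 9.07, below the 9.10 of the lowest untreated array.

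GAP43, a growth cone membrane protein made in large amounts during axon growth and regeneration, had log2 values of 8.86, 8.69 and 8.88 in untreated cells, 8.84, 8.95 and 8.91 at 0.5 nM S100B, and 8.67, 8.72 and 9.13 at 5 µM. The groups overlapped, and the highest and the lowest array of all 9 were both at 5 µM. The difference was 0.031 ± 0.11 (SE, 95% interval -0.21 to 0.27, adjusted p = 0.981 by limma) for 5 µM minus untreated and 0.090 ± 0.11 (interval -0.15 to 0.33) for 0.5 nM minus untreated. Without replicate 3 at 5 µM, which gave the 9.13, the difference at 5 µM was -0.11, and without untreated replicate 2 it was -0.029.

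L1CAM, an immunoglobulin-family adhesion molecule on which axons grow and bundle, had values of 8.09, 7.91 and 8.37 in untreated cells, 8.36, 8.24 and 8.18 at 0.5 nM, and 8.0, 8.22 and 8.41 at 5 µM. The groups overlapped throughout, and the untreated arrays alone spanned nearly the whole range. The difference was 0.091 ± 0.12 (SE, adjusted p = 0.927 by limma) for 5 µM minus untreated and 0.14 ± 0.12 for 0.5 nM minus untreated. Leaving out replicate 3 at 5 µM made the first of these -0.0093, and leaving out untreated replicate 2 made it -0.017.

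DPYSL3, a collapsin response mediator protein that binds the growth cone's actin and microtubules, was the one gene of the 10 with groups that did not overlap. Its values were 9.10, 9.36 and 9.11 in untreated cells, 9.17, 9.12 and 9.24 at 0.5 nM, and 9.02, 9.07 and 9.04 at 5 µM. All 3 arrays at 5 µM were below all 6 others, with a mean of 9.04 ± 0.021 at 5 µM against 9.19 ± 0.14 in untreated cells (SD, n = 3 each). The difference was -0.15 ± 0.072 (SE, interval -0.30 to 0.013, unadjusted p = 0.0688, adjusted p = 0.746 by limma), or 90.4% of the untreated level. It was -0.062 without untreated replicate 2, the 9.36, and -0.19 without untreated replicate 1. Against 0.5 nM it was -0.14 ± 0.072 (SE, adjusted p = 0.994 by limma). For 0.5 nM minus untreated it was -0.0096 ± 0.072, but 0.00049 after quantile normalization and 0.018 with each array centred on its median.

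Groups that do not overlap were common on these arrays: 12.3% of all probe sets tested had none between 5 µM and untreated cells, against 1 of the 10 genes. Between 0.5 nM and untreated cells the share was 6.98% against 0 of the 10, and between 5 µM and 0.5 nM it was 6.98% against 1 of the 10, again DPYSL3. With 3 arrays against 3, an exact permutation test of 1 gene cannot go below a two-sided p of 0.1. The count over the 10 genes is therefore near its background.

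STMN2, a stathmin of growing neurites that binds tubulin and keeps microtubules dynamic, had values of 12.28, 12.03 and 12.12 in untreated cells, 12.02, 12.23 and 12.33 at 0.5 nM, and 12.13, 12.20 and 12.47 at 5 µM. The highest array of the 9 was replicate 3 at 5 µM, while the other arrays at that dose lay within the untreated span. The difference was 0.12 ± 0.11 (SE, interval -0.11 to 0.36, adjusted p = 0.874 by limma) for 5 µM minus untreated, and 0.018 without that array.

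DCX, which bundles microtubules in migrating and newly formed neurons, had values of 10.57, 10.57 and 10.59 in untreated cells, 10.57, 10.53 and 10.57 at 0.5 nM, and 10.57, 10.56 and 10.79 at 5 µM. It varied least of the 10 genes, with 8 arrays between 10.53 and 10.59 and replicate 3 at 5 µM alone above them. The deposited value was exactly 10.5694 on untreated replicates 1 and 2, 0.5 nM replicates 1 and 3, and 5 µM replicate 1. What lies behind these equal values was not tested, and the small spread of DCX includes them. The difference of 0.064 ± 0.066 for 5 µM minus untreated (SE, adjusted p = 0.904 by limma) rested on that array, and without it was -0.012.

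MAP1B, the microtubule-associated protein that appears first in developing axons, had values of 7.65, 7.11 and 7.53 in untreated cells, 7.66, 7.62 and 7.87 at 0.5 nM, and 7.48, 7.51 and 7.85 at 5 µM. The 7.11 of untreated replicate 2 was the lowest of the 9 arrays, and the untreated replicate 1 overlapped the 0.5 nM group. The difference was 0.18 ± 0.14 (SE, interval -0.13 to 0.49, adjusted p = 0.836 by limma) for 5 µM minus untreated. For 0.5 nM minus untreated it was 0.29 ± 0.14 (interval -0.022 to 0.60, unadjusted p = 0.0657, adjusted p = 0.9999 by limma). Without untreated replicate 2 these differences were 0.024 for 5 µM minus untreated and 0.13 for 0.5 nM minus untreated.

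MAP2, which stabilises microtubules in dendrites, had values of 7.62, 7.16 and 7.03 in untreated cells, 7.18, 7.27 and 6.97 at 0.5 nM, and 7.16, 7.21 and 6.80 at 5 µM. In each group the lowest array was replicate 3. The difference was -0.22 ± 0.15 (SE, interval -0.56 to 0.12, adjusted p = 0.827 by limma) for 5 µM minus untreated and -0.14 ± 0.15 for 0.5 nM minus untreated. Without untreated replicate 1, the 7.62, these were -0.043 for 5 µM minus untreated and 0.038 for 0.5 nM minus untreated.

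TUBB3, the beta-tubulin found mainly in neurons, had values of 11.76, 11.61 and 11.84 in untreated cells, 11.66, 11.84 and 11.98 at 0.5 nM, and 11.60, 11.69 and 11.84 at 5 µM. In each group the highest array was replicate 3. The difference was -0.026 ± 0.093 (SE, adjusted p = 0.981 by limma) for 5 µM minus untreated and 0.0044 after quantile normalization, and it was 0.088 ± 0.093 for 0.5 nM minus untreated. The suffix of its probe set, x_at, marks probes that can match unrelated transcripts, and other tubulins are near-identical in sequence, so its value is less specific than the others.

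NEFL, the neurofilament light chain, had values of 9.47, 9.36 and 9.01 in untreated cells, 9.65, 9.41 and 8.78 at 0.5 nM, and 9.28, 9.30 and 8.93 at 5 µM. Replicate 3 was the lowest array of each group, and the widest gap between arrays of a group, at 0.5 nM, exceeded every difference between its group means. The difference was -0.11 ± 0.20 (SE, interval -0.56 to 0.33, adjusted p = 0.953 by limma) for 5 µM minus untreated. For 0.5 nM minus untreated it was -0.0014 ± 0.20, but 0.0073 after quantile normalization and 0.026 with each array centred on its median.

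NEFM, the neurofilament medium chain, had the widest spread of the 10, with values of 8.45, 7.70 and 7.75 in untreated cells, 8.54, 8.47 and 8.22 at 0.5 nM, and 7.84, 7.94 and 8.61 at 5 µM. All 3 arrays at 0.5 nM were high, and in each of the other groups 1 array reached their level. The mean was 8.41 ± 0.17 at 0.5 nM against 7.97 ± 0.42 in untreated cells (SD, n = 3 each), a difference of 0.44 ± 0.22 (SE, interval -0.052 to 0.94, unadjusted p = 0.0745, adjusted p = 0.9999 by limma), or 136% of the untreated level. That difference was 0.31 without untreated replicate 2 and 0.68 without untreated replicate 1. The difference for 5 µM minus untreated was 0.16 ± 0.22, and -0.079 without replicate 3 at 5 µM.

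**Figure D2:**
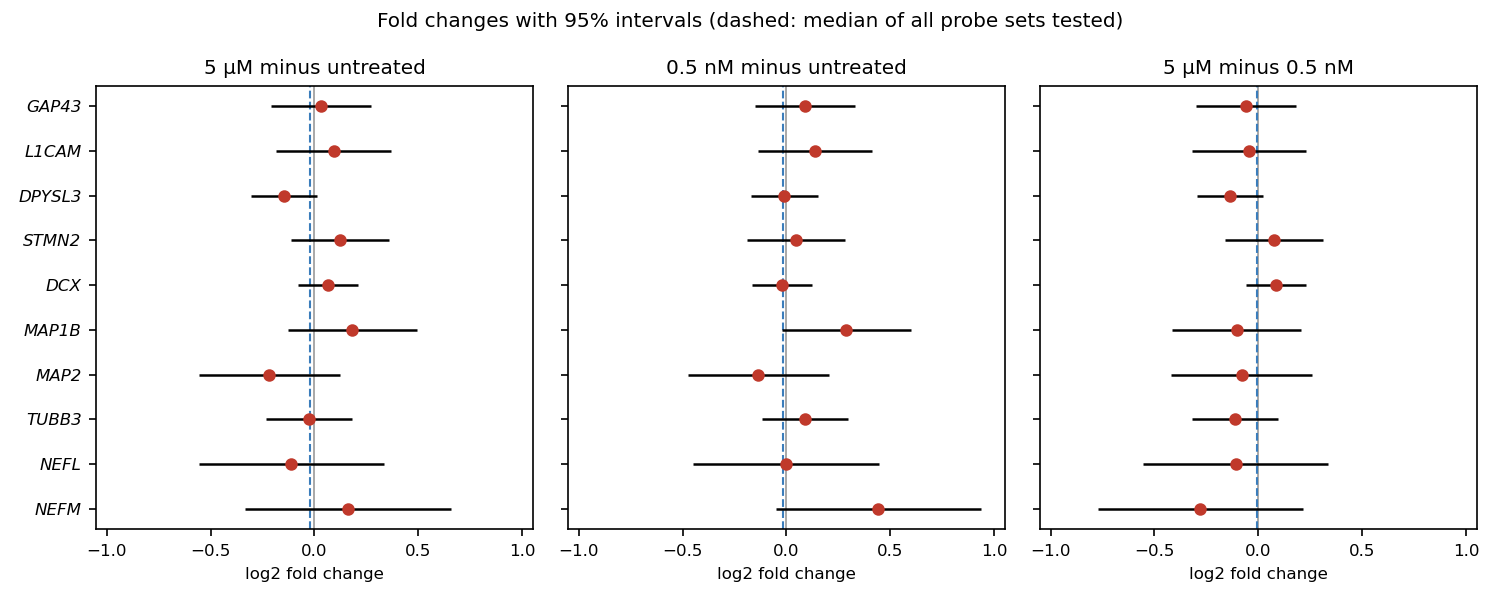
Log2 differences of the 10 genes in the 3 comparisons, points with 95% intervals from limma, and dashed lines at the median of all 5830 probe sets tested. Every interval includes 0, and the one reaching furthest is NEFM for 0.5 nM minus untreated, with an upper bound of 0.94.

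Across the 10 genes, 6 had a positive and 4 a negative difference for 5 µM minus untreated, with a median of 0.047 beside -0.024 over all probe sets tested, and 7 were positive after quantile normalization. For 0.5 nM minus untreated the split was again 6 and 4, with a median of 0.068 beside -0.016, and 8 were positive after quantile normalization and 9 with each array centred on its median. For 5 µM minus 0.5 nM it was 2 and 8 under each scaling, with a median of -0.093 beside -0.0089. The comparisons share arrays, the first 2 the untreated ones, so their values are not independent. Of the 30 differences, 29 changed sign or moved by over 1.5 times when some 1 array was left out. None of the 10 had an unadjusted p under 0.05 in any of the 3 in this fit, which has no block, while 6.84%, 3.29% and 4.65% of all probe sets tested did, in the same order.

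The intervals give the largest differences left possible at that confidence under limma's moderated spread. That spread draws a gene's own residual SD towards a prior of 0.084 log2. For noisy genes such as NEFM, with an SD of 0.35, the intervals are narrower than that SD alone would give. Intervals from each gene's own SD were not computed. For 5 µM minus untreated the furthest bound of any of the 10 was 0.66 log2, or 1.58-fold, and for 0.5 nM minus untreated it was 0.94 log2, or 1.91-fold. For 5 µM minus 0.5 nM it was 0.77 log2, or 1.71-fold. None of these moderated 95% intervals, each covering 1 gene and 1 comparison, reached a doubling or a halving. The moderated F test over the 3 groups gave the 10 genes adjusted p-values of 0.984 to 0.992 by limma.

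These genes were noisier than most. Their residual SD within groups had a median of 0.17 log2, beside 0.088 over all probe sets tested. It was above that overall median for 9 of the 10 and above the 90th percentile of all probe sets, 0.16, for 6. DCX had the smallest, 0.077, and NEFM the largest, 0.35. The moderated 95% intervals were also wider, with a median half-width of 0.26 log2 for the 10 genes and 0.16 for all.

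**Figure D3:**
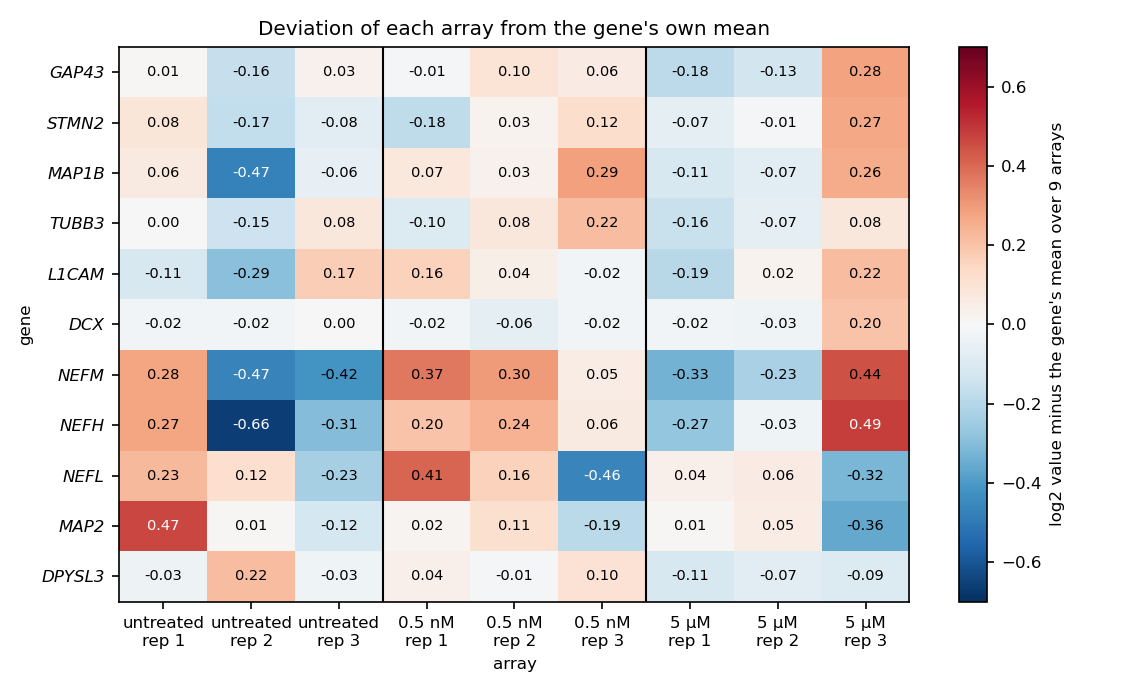
Deviation of each gene from its own mean over the 9 arrays (colour and number, log2 units), genes in rows with NEFH added, arrays in columns by group in dose order. MAP2 and NEFL are negative on replicate 3 of every group, and NEFM and NEFH follow one another.

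Part of this spread was shared between genes. As a description chosen after the values were seen, 6 genes (GAP43, STMN2, MAP1B, TUBB3, NEFM and L1CAM) had positive correlations in all 15 pairs over the 9 arrays, with Pearson's r of 0.35 to 0.76 and a median of 0.73, and of 0.34 to 0.93 without the 2 arrays farthest from the median of the first gene of a pair. GAP43 and MAP1B, whose upstream bases are given, had the highest Pearson's r, 0.76, beside 0.75 for GAP43 and STMN2. Their Spearman's rho was 0.75, below the 0.85 of GAP43 and TUBB3. Their r was 0.77 without the 2 arrays farthest from the median GAP43 value. For STMN2 and MAP1B it was 0.93 without the 2 arrays farthest from the median STMN2 value. DCX, flat on 8 of the arrays, had r of 0.22 to 0.67 with the 6, but rho of only 0.037 to 0.38, and r of -0.29 to 0.77 without 2 arrays, so its place beside them rested on few arrays. MAP2 and NEFL went together (r 0.72, rho 0.84) and had r between -0.70 and 0.14 with the 6. DPYSL3 had r between -0.42 and 0.045 with the others, and between -0.70 and 0.30 without 2 arrays. All points share their arrays, so a property of an array enters every gene at once.

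The replicate 3 arrays stood apart for MAP2 and NEFL. MAP2 lay between 6.80 and 7.03 on the replicate 3 arrays and between 7.16 and 7.62 on the other 6, and NEFL between 8.78 and 9.01 on the replicate 3 arrays and between 9.28 and 9.65 on the other 6. TUBB3 was highest on replicate 3 within every group, but its lowest replicate 3 array, 11.8396, barely cleared the 11.8394 of the highest other array. How many of all probe sets tested show this was not counted, so it is not given as a trait of these genes. The labels do not say that a number marks a shared culture, day or scan, so replicate number is not called a batch here.

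The array's own control probe sets moved with several of the genes. The log2 difference between the 3′ and 5′ GAPDH probe sets, a measure of RNA integrity and labelling length, ran between 0.20 and 0.40 over the arrays and was largest on replicate 3 at 5 µM. It correlated with STMN2 (r 0.84), GAP43 (0.80), TUBB3 (0.80), MAP1B (0.60) and NEFL (-0.68) over the 9 arrays. The same measure for ACTB correlated with MAP2 (-0.84), DCX (0.65) and NEFL (-0.59). The Alu repeat control, which ran between 13.69 and 14.05, correlated with NEFL (-0.82), TUBB3 (0.75) and STMN2 (0.70). Each of these kept its sign without the 2 arrays farthest from the median of the control. By contrast, NEFM, L1CAM and DPYSL3 had r between -0.26 and 0.48 with these controls over the 9 arrays. The share of all probe sets with correlations of this size was not computed. The part of RNA quality or of array processing in these genes' spread was not tested.

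**Figure D4:**
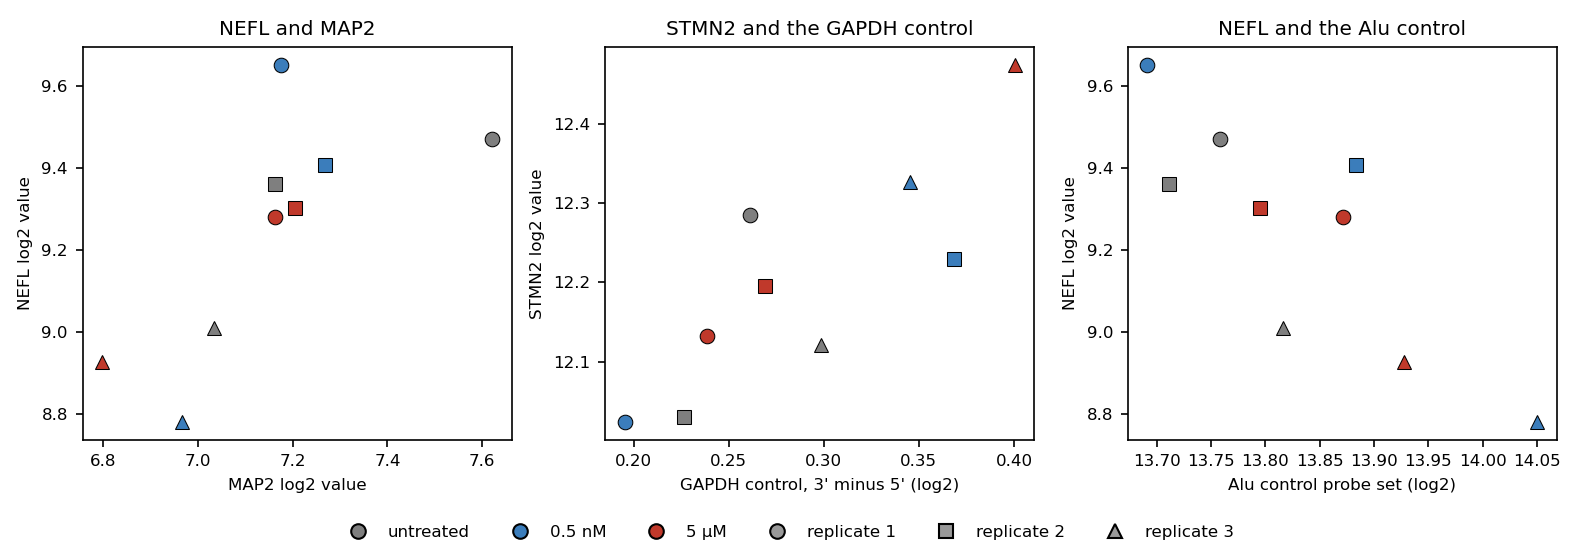
Values of the 9 arrays, coloured by group and shaped by replicate number: NEFL against MAP2, STMN2 against the 3′ minus 5′ difference of GAPDH, and NEFL against the Alu control, all in log2 units. The replicate 3 arrays sit at the low end of both NEFL and MAP2, and the relations run through all 3 groups.

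The heavy neurofilament chain NEFH, a gene of the intermediate filament list, followed NEFM closely. Its values were 8.88, 7.94 and 8.30 in untreated cells, 8.80, 8.85 and 8.66 at 0.5 nM, and 8.33, 8.57 and 9.09 at 5 µM. Over the 9 arrays its r with NEFM was 0.94 (rho 0.93, and 0.94 without 2 arrays), while its r with NEFL was -0.021 (0.55 without 2 arrays) and that of NEFL with NEFM 0.14 (0.77 without the 2 arrays farthest from the median NEFL value), although NEFL and NEFM are adjacent protein-coding genes in the RefSeq annotation. Its difference for 0.5 nM minus untreated was 0.40 ± 0.22 (SE, adjusted p = 0.9999 by limma), and it was 0.18 without untreated replicate 2 and 0.65 without untreated replicate 1.

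The genes outside the 10 whose array profile was most like their mean profile (each gene centred on its own mean) were NASP, a histone chaperone (r 0.98), DNMT1, the maintenance DNA methyltransferase (0.96), NEFH (0.95), KTN1, a kinesin-binding membrane protein (0.95), and NARF, which binds prelamin A (0.94), out of 5137 genes compared over 9 arrays. The mean profile was highest on replicate 3 at 5 µM (0.099 log2) and lowest on untreated replicate 2 (-0.14). Genes of wide spread such as NEFM weigh most in it.

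The wider machinery around these genes showed no call. In 9 lists of pathway genes, 226 genes in all, 130 were measured above the filter, and 0 were called in any comparison by limma, with smallest adjusted p-values of 0.456, 0.9999 and 0.821 for 5 µM minus untreated, 0.5 nM minus untreated and 5 µM minus 0.5 nM. Their median differences were -0.011, 0.0037 and -0.018 log2, beside -0.024, -0.016 and -0.0089 over all probe sets tested.

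By role, of 21 tubulin, stathmin and microtubule-associated genes above the filter 0 were called, with a median of -0.021 for 5 µM minus untreated. The tubulin-folding cofactors TBCD and TBCC had the smallest 3-group p of this list, with TBCD at -0.17 ± 0.080 for 5 µM minus 0.5 nM and TBCC at -0.15 ± 0.077 for 0.5 nM minus untreated. Of 17 axonal transport motor genes 0 were called (median 0.0074), and the dynactin subunit DCTN3 was at -0.15 ± 0.061 for 0.5 nM minus untreated and the kinesin adaptor KIFAP3 at 0.21 ± 0.086 for 5 µM minus 0.5 nM. Of 7 intermediate filament genes 0 were called (median 0.045). PLEC, the linker plectin, was at 7.48 ± 0.038 at 5 µM against 7.66 ± 0.024 in untreated cells (SD, n = 3 each), a difference of -0.18 ± 0.052 (SE, adjusted p = 0.456 by limma), the smallest adjusted p of the 130 genes in that comparison.

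Of 12 collapsin response mediator and growth cone membrane genes 0 were called (median -0.025), of 14 neural adhesion genes 0 (median -0.047) and of 18 axon guidance genes 0 (median -0.012). Among these, the adhesion molecule ALCAM was at 9.28 ± 0.059 at 5 µM against 9.49 ± 0.10 at 0.5 nM, and the semaphorin receptor PLXNA2 at 6.26 ± 0.075 at 5 µM against 6.42 ± 0.057 at 0.5 nM (SD, n = 3 each). By the same naming rule, NRN1 was at 0.15 ± 0.055, THY1 at -0.17 ± 0.075 and the ephrin receptor EPHA4 at -0.15 ± 0.060 for 5 µM minus 0.5 nM, and CAP2 at -0.11 ± 0.055 for 5 µM minus untreated (log2 differences, SE). CAP2 lay close to the filter of 5.95, with means of 6.05 in untreated cells and 5.94 at 5 µM.

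Of 5 neurotrophin and GDNF family genes 0 were called, with a median of -0.13 for 5 µM minus untreated. The differences ran from -0.28 to 0.14, with 2 of the 5 higher at 5 µM, so the list did not move in 1 direction. Groups did not overlap there, in either direction, for 4 of the 5, beside 12.3% of all probe sets. This was the largest share of the lists reported here. The count was 0 of 21 microtubule genes, 2 of 17 motor genes and 1 of 7 intermediate filament genes. It was 0 of 12 growth cone, 1 of 14 adhesion, 1 of 18 guidance and 1 of 11 differentiation genes. ARTN, a GDNF family ligand, was at 7.27 ± 0.27 at 5 µM against 7.58 ± 0.11 at 0.5 nM, and CNTFR, the ciliary neurotrophic factor receptor, at 7.29 ± 0.079 at 5 µM against 7.46 ± 0.082 in untreated cells (SD, n = 3 each). The ARTN arrays at 5 µM were 7.45, 7.41 and, on replicate 3, 6.96. Of 11 neuronal RNA-binding and differentiation genes 0 were called (median -0.026), with the neuronal RNA-binding protein ELAVL4 at 10.30 ± 0.12 at 5 µM against 10.49 ± 0.085 at 0.5 nM, and its widely expressed relative ELAVL1 at 9.04 ± 0.082 at 5 µM against 9.27 ± 0.15 in untreated cells (SD, n = 3 each).

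The cell type markers fitted the label of the line in part. The filter kept 5830 of the 8746 probe sets that are not controls, so a place above it was common. Such a place does not by itself show that a gene is expressed. Of 15 noradrenergic neuroblast markers on the array 13 were above the filter, among them PHOX2A, GATA3, DBH, DDC, CHGA and ISL1, while TH, the rate-limiting enzyme of catecholamine synthesis, and the vesicular transporter SLC18A2 were below it. Of mesenchymal and Schwann-like markers 5 of 16 were above the filter, of astrocyte and oligodendrocyte markers 4 of 10 and of leukocyte markers 5 of 9. Those above it were COL1A2, TWIST1, S100A4, SPARC and SOX10 of the mesenchymal and Schwann-like list, SLC1A3, ALDH1L1, GLUL and MBP of the glial list, and CD3D, CD3E, MS4A1, CD74 and CSF1R of the leukocyte list. COL1A1, GFAP, AQP4, PTPRC and CD14 were among those below it. None of the markers on these lists was called in any comparison by limma. Between 5 µM and untreated cells, the amine transporter SLC18A1 was at 0.21 ± 0.062, CHGA, a secretory granule protein, at 0.20 ± 0.092, TWIST1 at -0.19 ± 0.084, COL1A2 at -0.078 ± 0.054, GLUL at -0.10 ± 0.066 and CD74 at -0.32 ± 0.097 (log2 differences, SE). ALDH1L1 was at -0.063 ± 0.062 for 0.5 nM minus untreated and MS4A1 at 0.11 ± 0.097 for 5 µM minus 0.5 nM.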

How the data were processed

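RNA of 9 LAN-5 cultures was measured on 1-colour Affymetrix arrays. The deposited values are log2 signals, 1 per probe set and array, and the submitters' processing notes name GCRMA without a version. GCRMA subtracts background and normalises arrays together, which can compress differences of dim probe sets. The values, 4.37 to 14.5, showed the log2 scale, with array medians of 6.60 to 6.64. No array was a duplicate of another: a pair had equal values in at most 277 probe sets, and arrays correlated at 0.993 to 0.997.

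Of 8793 probe sets, 47 controls and 2916 with a mean at or below 5.95 (the dimmest by mean over all 9 arrays) were left out, and 5830 were fitted by lmFit and eBayes of limma (version 3.58.1, R version 4.3.3; 1 factor of 3 groups, no covariate, 6 residual and 4.55 prior degrees of freedom). P-values were adjusted by Benjamini-Hochberg over 5830 probe sets. They weigh group differences against the spread between these arrays of 1 line, as moderated by limma. Scripts were tested on simulated data. Gene names came from the platform annotation: 7840 probe sets had 1 symbol, 388 several and 518 none.

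Named were the 10 genes, up to 4 called genes of each list or else the 2 with the smallest 3-group p, and the 5 genes most like the mean profile, 1 probe set per gene, that of highest mean. The 10 genes, the lists and their markers were chosen with earlier results of these data known. Of the 9 pathway lists, 1 enters the counts over all lists and is not reported here by itself. Alternatives were the filter, the scaling, a trended robust prior, the replicate number as a block, fits of 2 groups and each array left out.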

Additional observations from a re-analysis of the deposited data

How the results depend on the processing

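The 10 genes gave 480 values over 16 alternatives (scaling, filter, prior, block, 2-group fits and left-out arrays) in the 3 comparisons, and none passed the threshold (smallest adjusted p 0.605). Of these, 31 changed sign. The filter, the prior, the block, the 2-group fits and left-out arrays of a group not compared keep each difference by construction. Only the scaling and left-out arrays of the groups compared could change a sign. Of 26 differences of list genes, 11 changed sign or moved by over 1.5 times without some 1 array. Leaving out 1 array at a time gave, for 5 µM minus untreated, GAP43 -0.11 to 0.12, DCX -0.012 to 0.10, TUBB3 -0.090 to 0.028, NEFL -0.25 to 0.011, NEFM -0.079 to 0.40 and L1CAM -0.017 to 0.22. For 0.5 nM minus untreated it gave STMN2 -0.019 to 0.13, MAP2 -0.26 to 0.038, NEFL -0.19 to 0.25 and DPYSL3 -0.053 to 0.074. For 5 µM minus 0.5 nM it gave GAP43 -0.20 to 0.027, STMN2 -0.029 to 0.14, MAP2 -0.17 to 0.048, NEFL -0.36 to 0.077, L1CAM -0.15 to 0.060 and, of the leukocyte markers, MS4A1 -0.012 to 0.20. Without replicate 3 at 5 µM, 5 of the 10 genes changed sign for 5 µM minus untreated (GAP43, DCX, NEFL, NEFM and L1CAM). Quantile normalization turned TUBB3 for 5 µM minus untreated (0.0044), and NEFL (0.0073) and DPYSL3 (0.00049) for 0.5 nM minus untreated. Centring each array on its median turned DCX (0.0056), NEFL (0.026) and DPYSL3 (0.018) for 0.5 nM minus untreated. The count of called probe sets was 7 for 5 µM minus untreated and 4 for 5 µM minus 0.5 nM when only those 2 groups were fitted. With 1 array left out it was 4 to 17 for 5 µM minus untreated, 3 to 14 for 5 µM minus 0.5 nM and 3 to 15 for the 3-group test. The count for 5 µM minus untreated was 6, 8 and 9 without 5 µM replicates 1, 2 and 3, and 4, 7 and 4 without untreated replicates 1, 2 and 3. For 5 µM minus 0.5 nM it was 8 and 4 without 5 µM replicates 1 and 2, and 5, 6 and 3 without 0.5 nM replicates 1, 2 and 3. For the 3-group test it was 5, 3 and 8 without 5 µM replicates 1, 2 and 3, and 9, 9 and 5 without untreated replicates 1, 2 and 3. These fits hold fewer arrays by construction. The median over the 10 genes stayed within -0.046 to 0.11, 0.029 to 0.11 and -0.14 to -0.048. The replicate 3 arrays deviated together from their group means (r 0.298 to 0.330 with each other). Their r with the others in other groups was -0.367 to -0.062. Deviations sum to 0 within a group, so these negative values are partly built in. Same-numbered arrays of replicates 1 and 2 correlated at -0.00035 to 0.23. Pairs over 0.1 were 4 of 9 with the same number and 4 of 18 with different numbers, a larger share with the same number. The highest r of any pair between groups, 0.348, was between 0.5 nM replicate 1 and 5 µM replicate 2. With no shared source in the labels, the numbers were not taken to pair the samples. With replicate number as a block, 15, 0 and 15 probe sets were called and 16 in the 3-group test, none of them among the 10 genes (smallest adjusted p 0.637), and the standard error of NEFL was 0.089 in place of 0.20. In that limma fit MAP1B had an adjusted p of 0.989 for 0.5 nM minus untreated (0.0173 unadjusted) and MAP2 an adjusted p of 0.637 for 5 µM minus untreated (0.0495 unadjusted). Probe set signal over background limits what dim genes can show.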
